A study of Mus musculus with 12 samples.

Results

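The genes described here are 33 members of the glycolytic and hypoxia response programme: the enzymes that turn glucose into pyruvate, the enzymes and the kinase at the fate of pyruvate, the regulatory kinase Pfkfb3, glucose and lactate transporters, the hypoxia-inducible factor Hif1a with 2 of its prolyl hydroxylases, and 6 classical hypoxia targets. A member was measured where a probe set of the array carried its symbol and no other, and its brightest probe set stood for it. By this rule 30 of the 33 members had a probe set, among 12393 genes with 1 in the whole table. Gpi1, Eno1 and Gapdh had none; Gapdh was read only by the control probe sets of the array and by probe sets shared with other genes. Of the 30, 29 passed the filter on dim probe sets and were tested. The lactate exporter Slc16a3 did not pass and read below the brightest absent-transcript control on all 12 arrays.

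The mice were female C57BL/6 of the wild type, 10 weeks old, and their spinal cords were compared after a sham operation or an injury. Sham animals, which the sample titles call naive, had the vertebral arch opened (laminectomy) and nothing more, whereas injured animals also received a cut through 80% of the cord. At 9 hours a 2.5 cm piece of cord around the lesion was taken, and RNA was prepared both from an aliquot of the whole lysate (total RNA) and from the polysome fractions of a sucrose gradient (polysome-bound RNA). Each of the 4 groups had 3 biological replicates, so 12 Affymetrix arrays were used; the labels do not say whether a replicate was 1 animal or a pool, and p-values measure the spread between these samples. Both groups of mice were wild type, and the piece of cord holds all cell types of the tissue, so a change can come from any of them.

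Glycolysis splits glucose into pyruvate and yields ATP without oxygen. Neural tissue depends on glucose that enters through facilitative transporters, and astrocytes are known for strong glycolysis and release of lactate. When oxygen falls, the prolyl hydroxylases of the Egln family no longer mark HIF-1α for destruction, the factor joins Arnt, and the dimer binds hypoxia response elements near glycolytic, angiogenic and pH-related genes. HIF-1α is controlled mainly at the level of its protein, which arrays do not read.

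The core of a hypoxia response element reads ACGTG or GCGTG. Both words were searched on both strands in the 250 bases before each start in the RefSeq promoter table (GRCm38.p6); an ACGTG on each strand overlaps within CACGTG. Windows existed for 31 of the 33 members, all but Ndrg1 and Slc2a3, and 28 of these (90.3%) held a match in at least 1 window. The same held for 59.4% of the 8318 tested genes that have a window and for 41.5% of all 27025 symbols of the table. By window the shares were 80.0% of 45 member windows and 53.4% of the windows of tested genes. Both kinds of window had a median of 14 CG pairs. Below are the upstream windows of the 4 members with the largest rises in total RNA (Slc2a1, Hk2, Adm, Ldha). Those of Tpi1 and Eno2, abundant enzymes whose windows held no match, are also printed. Tpi1 and Eno2 were themselves called higher in total RNA. The 4 members not called there (Eno3, Pdk1, Egln3 and P4ha1) all held a match in at least 1 window. Capitals mark the matches, each 5′ to 3′ on the strand of the gene.

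Slc2a1, chr4:119108495-119108744, plus strand: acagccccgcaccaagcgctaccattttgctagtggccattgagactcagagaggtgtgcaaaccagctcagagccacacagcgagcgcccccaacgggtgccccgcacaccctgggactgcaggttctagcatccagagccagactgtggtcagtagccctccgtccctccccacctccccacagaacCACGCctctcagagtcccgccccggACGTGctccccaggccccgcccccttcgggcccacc
Hk2, chr6:82774455-82774704, minus strand: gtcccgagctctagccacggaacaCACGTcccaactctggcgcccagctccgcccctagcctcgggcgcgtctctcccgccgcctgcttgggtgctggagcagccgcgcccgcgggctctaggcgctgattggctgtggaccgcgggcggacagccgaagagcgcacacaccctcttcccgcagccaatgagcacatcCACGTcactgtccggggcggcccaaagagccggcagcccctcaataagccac
Adm, chr7:110627407-110627656, plus strand: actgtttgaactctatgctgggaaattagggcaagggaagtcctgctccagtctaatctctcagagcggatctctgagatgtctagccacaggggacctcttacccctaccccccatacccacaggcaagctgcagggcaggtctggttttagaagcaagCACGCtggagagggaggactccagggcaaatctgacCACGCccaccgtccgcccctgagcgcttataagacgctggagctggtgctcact
Ldha, the upstream of its 2 starts, chr7:46845554-46845803, plus strand: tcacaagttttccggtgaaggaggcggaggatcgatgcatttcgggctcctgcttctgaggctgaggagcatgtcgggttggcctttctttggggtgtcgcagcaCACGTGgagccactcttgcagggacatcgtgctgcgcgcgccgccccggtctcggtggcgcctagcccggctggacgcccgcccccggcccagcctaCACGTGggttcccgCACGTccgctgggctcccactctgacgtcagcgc
Tpi1, chr6:124814159-124814408, minus strand: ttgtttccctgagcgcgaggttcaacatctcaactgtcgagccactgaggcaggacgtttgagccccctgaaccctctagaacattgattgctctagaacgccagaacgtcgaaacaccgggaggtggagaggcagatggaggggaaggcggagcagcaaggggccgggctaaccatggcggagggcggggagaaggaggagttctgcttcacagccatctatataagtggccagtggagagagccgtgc
Eno2, chr6:124769674-124769923, minus strand: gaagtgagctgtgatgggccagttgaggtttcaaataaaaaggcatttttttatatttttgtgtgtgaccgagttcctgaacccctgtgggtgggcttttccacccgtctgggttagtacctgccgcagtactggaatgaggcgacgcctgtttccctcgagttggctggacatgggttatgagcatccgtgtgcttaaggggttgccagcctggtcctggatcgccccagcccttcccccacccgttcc

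In Slc2a1 the matches begin 61 and 36 bases before the start, in Hk2 226 and 52, in Adm 90 and 54. Ldha holds CACGTG 145 and 48 bases before its start and a further match at 34. A match is a run of letters and no evidence of binding.

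All values are the log2 values that the authors deposited, so that a difference of 1 is a change of 2-fold in signal. Injury moved much of the transcriptome: by limma at a Benjamini-Hochberg adjusted p of 0.05, 60.2% of 10370 genes were called in total RNA and 39.1% in polysome-bound RNA. The median gene shifted by 0.12 in total RNA and by -0.04 on polysomes, and in total RNA the shift grew with brightness, from -0.15 in the dimmest decile of genes to 0.27 in the brightest. Quantile normalization of the 12 arrays brought the median shift in total RNA to 0.01. It lowered the share of called genes that were higher in total RNA from 70.0% to 55.9%. RNA measures moved with injury as well. The 3′ minus 5′ difference of the Gapdh control probe sets, a reading of transcript completeness, rose from 0.23 ± 0.05 to 1.40 ± 0.22 (SD, n = 3) in total RNA and from 0.87 ± 0.03 to 2.83 ± 0.27 on polysomes (exact two-sided permutation p = 0.1 in each, the smallest possible), and the mean of 9 hybridisation control probe sets fell by 0.57 and 0.41 on the log2 scale. The part of these measures in the results below was not tested.

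Of the defining markers of the cord's own cells, 9 of 9 neuronal, 8 of 8 astrocyte, 6 of 6 measured oligodendrocyte, 4 of 5 microglial and 3 of 7 endothelial markers exceeded every absent-transcript control on all 12 arrays. The counts were 4 of 5 for meningeal and stromal cells, 5 of 7 for neutrophils, 2 of 5 for monocytes and macrophages, 2 of 7 for skeletal muscle and 0 of 2 for red cells. Among all genes, 42.1% were called higher and 18.1% lower in total RNA, and 72.6% and 2.7% in the brightest decile. The summed astrocyte markers, in log2, ran from 13.84 to 13.92 in sham and from 14.25 to 14.29 in injured total RNA. Of these markers 6 of 8 were higher. Summed neuronal markers ran from 15.52 to 15.60 in sham and from 15.69 to 15.77 in injured total RNA. Of the 9, which include the member Eno2 (called higher), 6 were higher and 2 lower. Oligodendrocyte sums overlapped, with 1 of 6 markers higher. Summed neutrophil markers went from 11.15 to 11.60 in sham and from 11.95 to 12.68 in injured total RNA, with 4 of 7 markers higher, 2 lower and S100a8 and S100a9 carrying the sum. Monocyte and macrophage markers ran from 10.04 to 10.21 and from 10.81 to 11.20, with 3 of 5 higher. Microglial markers ran the other way, with 0 of 5 higher and 3 lower, and of 7 endothelial markers 2 were higher and 2 lower. On polysomes the astrocyte sums were 13.16 to 13.35 in sham and 13.13 to 13.17 in injured cord, with 4 markers higher and 3 lower. Neutrophil sums there went from 10.27 to 10.56 and from 10.67 to 11.58, with 3 markers higher and 2 lower. Microglial sums ran from 10.81 to 10.96 and from 10.38 to 10.58, with 4 markers lower. Endothelial sums ran from 9.58 to 9.74 and from 9.40 to 9.48, with 3 lower. Sums of neuronal, oligodendrocyte, and monocyte and macrophage markers overlapped. Of all genes, 13.8% were higher and 25.3% lower on polysomes. Whether these shifts in cell markers contributed to the members' changes was not tested, and in bulk tissue more cells of a type cannot be told apart from more RNA per cell.

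In total RNA, 25 of 29 members were higher after injury and 0 were lower, where 42.1% of all genes were higher and 18.1% lower. The median member change was 0.32, beside 0.12 for all genes. The largest rises were those of the glucose transporter Slc2a1, hexokinase Hk2, the peptide precursor Adm, whose sham level was near background, and lactate dehydrogenase Ldha. Rises were smaller for most of the abundant enzymes, and 4 members (Eno3, Pdk1, P4ha1 and Egln3) were not called. The 25 called members were also the 25 whose sham and injured arrays did not overlap, a property of 72.7% of all genes. Scaling decided much of this count: after quantile normalization 10 of the 25 members were still called higher and 15 were not, of which Hk1, Pgam1, Eno2, Pkm, Egln1 and Ndrg1 changed sign. The 10 were Slc2a1, Hk2, Adm, Ldha, Hif1a, Slc16a1, Pfkp, Pfkfb3, Bnip3 and P4ha2. Over all genes, 2361 were called higher and 1865 lower after quantile normalization, against 4369 and 1873 with the deposited values.

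On polysomes, 6 members were higher and 4 lower, where 13.8% of all genes were higher and 25.3% lower, and 19 were not called. The higher ones were Hk2, Ldha, Hif1a, Bnip3, Pfkp and Aldoc, and the lower ones Ndrg1, Aldoa, Vegfa and Eno2. The median member change was 0.01, beside -0.04 for all genes. Sham and injured arrays did not overlap for 13 of 29 members, beside 46.3% of all genes. Centring each array on its median gave 11 higher and 1 lower member, and raised the share of called genes that were higher from 35.2% to 58.7%. Leaving out a single sham polysome array left 6, 5 or 6 calls of the 10 (replicates 1, 2 and 3 in turn). Hk2, Ldha and Ndrg1 kept their call under every alternative in which they were tested.

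**Figure D1:**
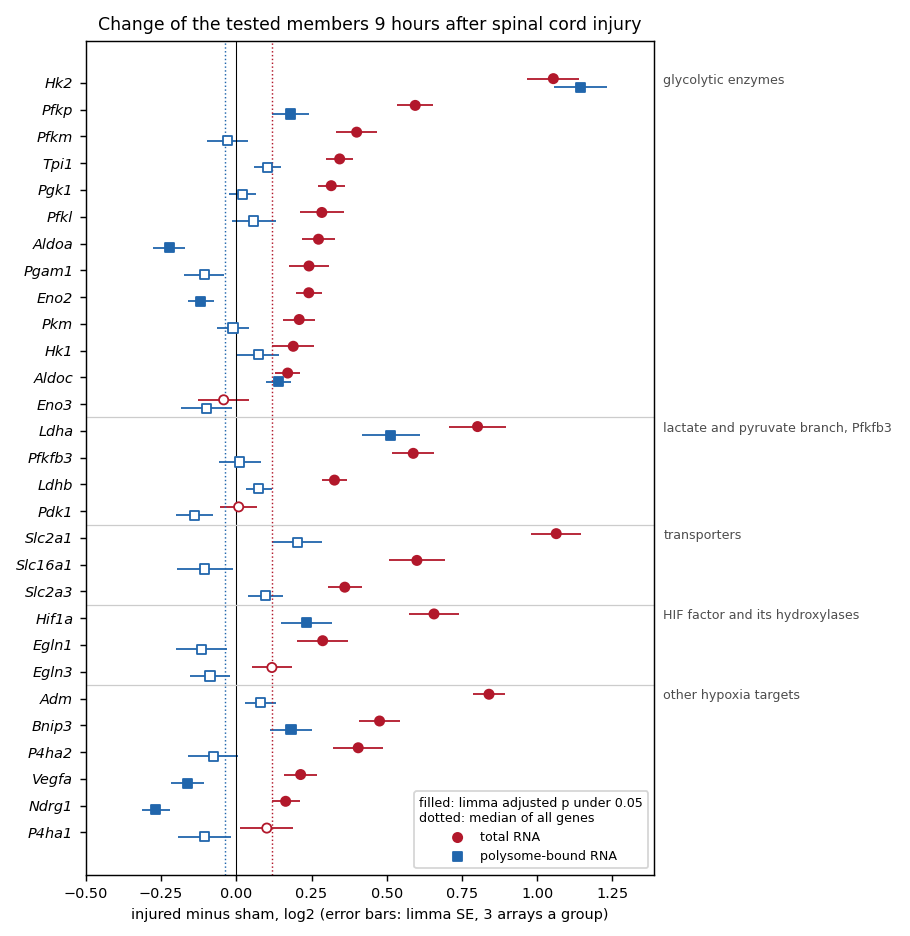
Log2 change (injured minus sham, horizontal axis) of the 29 tested members, grouped by role, in total RNA (circles) and polysome-bound RNA (squares); bars are limma standard errors, filled symbols have an adjusted p under 0.05 and dotted lines mark the median of all genes. Nearly all circles lie to the right of 0, up to 1.06 for Slc2a1, whereas most squares lie near 0 and only Hk2 is as far right in both; under quantile normalization 6 of the 25 filled circles change sign (Hk1, Pgam1, Eno2, Pkm, Egln1 and Ndrg1).

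The transporters rose in total RNA, 3 of 3 tested, beside 42.1% of all genes called higher. Of the 3, Slc2a3 lost its call under quantile normalization. Slc2a3 lies in the brightest decile of all genes, of which 72.6% were called higher with the deposited values. Slc2a1 encodes GLUT1, the glucose carrier of the blood-brain and blood-cord barrier and of astrocytes. Its log2 values were 10.52, 10.47 and 10.65 on the sham and 11.60, 11.66 and 11.57 on the injured arrays of total RNA. On polysomes they were 9.90, 9.81 and 9.95 in sham and 10.29, 10.05 and 9.93 in injured cord. The total RNA groups were thus clearly apart, and the polysome groups overlapped. The change was 1.06 ± 0.08 (log2, SE) in total RNA, or 2.09-fold (limma adjusted p = 6.58e-07), and 0.20 ± 0.08 on polysomes (limma adjusted p = 0.0686). That polysome value was called when injured polysome replicate 3 was left out (0.28) and under the scaling alternatives. The other 2 probe sets of Slc2a1 also rose in total RNA, by 0.99 and 0.90, and read 0.06 and -0.12 on polysomes, neither called.

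Slc16a1, the monocarboxylate carrier MCT1 through which lactate crosses membranes, read 10.41, 10.41 and 10.40 in sham and 11.16, 10.98 and 10.88 in injured total RNA. On polysomes it read 10.11, 10.06 and 10.06 in sham and 9.83, 10.22 and 9.88 in injured cord. Its sham arrays of total RNA lay very close together and far below the injured ones, while on polysomes 2 injured arrays lay under and 1 above the sham values. The change was 0.60 ± 0.09 in total RNA (limma adjusted p = 1.28e-04) and -0.10 ± 0.09 on polysomes (limma adjusted p = 0.404), which became a call at -0.23 without injured polysome replicate 2. Slc2a3, the neuronal glucose carrier GLUT3, went from 10.52, 10.51 and 10.48 to 10.91, 10.88 and 10.80 in total RNA and from 10.40, 10.39 and 10.51 to 10.57, 10.49 and 10.53 on polysomes. It rose by 0.36 ± 0.06 in total RNA (limma adjusted p = 1.56e-04); the call was lost under quantile normalization and turned to -0.33 when probe sets with an _s_at or _x_at name were left out, which leaves a dim probe set above the absent-transcript controls on 0 of 12 arrays. On polysomes its change was 0.10 ± 0.06, not called, and 0.17 to 0.18 and called under the other scalings.

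Among the glycolytic enzymes 12 of 13 tested were called higher in total RNA, beside 42.1% of all genes. In the brightest decile of all genes, in which most of these enzymes lie, the share was 72.6%. After quantile normalization Hk2 and Pfkp alone of the 12 kept the call. Hk1, Pgam1, Eno2 and Pkm then turned to values between -0.10 and -0.01. On polysomes 3 of the 13 rose (23.1%) and 2 fell (15.4%). There 13.8% of all genes rose and 25.3% fell, and 19.8% and 25.6% of the brightest decile. Hk2 is the inducible hexokinase, which traps glucose in the cell as its phosphate. It read 7.57, 7.50 and 7.60 in sham and 8.70, 8.68 and 8.47 in injured total RNA. Polysome arrays read 7.02, 6.90 and 7.13 and 8.14, 8.33 and 7.999. Sham and injured arrays were apart by far more than their spread in both fractions. The rise was 1.05 ± 0.09 in total RNA, or 2.08-fold (limma adjusted p = 8.13e-07), and 1.14 ± 0.09 on polysomes, or 2.21-fold (limma adjusted p = 6.34e-07). Hk1, the constitutive hexokinase of brain, read 10.59, 10.63 and 10.57 in sham and 10.81, 10.79 and 10.76 in injured total RNA. Its rise of 0.19 ± 0.07 (limma adjusted p = 0.0321) was lost when any single array of total RNA was left out (0.18 to 0.21) and was -0.10 under quantile normalization and -0.40 as the mean of its 2 probe sets. Its polysome change of 0.07 ± 0.07 was not called.

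Phosphofructokinase commits sugar to glycolysis and has a platelet (Pfkp), a muscle (Pfkm) and a liver (Pfkl) form. Pfkp read 10.92, 10.82 and 10.92 in sham and 11.51, 11.42 and 11.51 in injured total RNA. The polysome values were 10.93, 10.97 and 11.10 and 11.21, 11.12 and 11.20. The arrays did not overlap in either fraction, with a wide gap in total RNA and a narrow one on polysomes. Pfkp rose by 0.59 ± 0.06 in total RNA (limma adjusted p = 4.50e-06) and by 0.18 ± 0.06 on polysomes (limma adjusted p = 0.0287). The latter call was lost without sham polysome replicate 1 or 2 or injured polysome replicate 3 (0.14 to 0.17). The mean of its 2 probe sets gave -0.10 on polysomes. Its other, dimmer probe set, above the absent-transcript controls on 8 of 12 arrays, was called lower on polysomes, at -0.38. In total RNA that probe set changed by -0.20, not called. Pfkm went from 11.36, 11.44 and 11.45 to 11.83, 11.78 and 11.84 in total RNA, a rise of 0.40 ± 0.07 (limma adjusted p = 2.78e-04). Its polysome arrays, 11.53, 11.54 and 11.60 in sham and 11.49, 11.70 and 11.39 after injury, overlapped. Pfkl rose by 0.28 ± 0.07 (limma adjusted p = 0.00443), from 9.49, 9.54 and 9.54 to 9.85, 9.73 and 9.85 in total RNA, a call lost with the mean of its 2 probe sets (0.16) and under quantile normalization, which also ended that of Pfkm (0.14). Neither Pfkm (-0.03) nor Pfkl (0.06) was called on polysomes.

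Of the 2 aldolases, Aldoa went in opposite directions in the 2 fractions and Aldoc was higher in both. Aldoa, the muscle and ubiquitous aldolase, read 12.49, 12.53 and 12.55 in sham and 12.82, 12.76 and 12.80 in injured total RNA, but 13.22, 13.10 and 13.03 in sham and 12.91, 12.95 and 12.81 in injured cord on polysomes. Injured arrays thus all lay above the sham arrays in total RNA and all below them on polysomes. The change was 0.27 ± 0.05 in total RNA (limma adjusted p = 7.11e-04) and -0.22 ± 0.05 on polysomes (limma adjusted p = 0.0045). Quantile normalization ended the call in total RNA, and median centring ended that on polysomes (-0.14). The other 3 probe sets of Aldoa rose by 0.34 to 0.41 in total RNA and fell to changes between -0.77 and -0.35 on polysomes. Aldoc, the aldolase of brain and of astrocytes, read 13.59, 13.45 and 13.56 and 13.69, 13.69 and 13.74 in total RNA and 13.45, 13.45 and 13.47 and 13.64, 13.58 and 13.58 on polysomes. It was higher by 0.17 ± 0.04 (limma adjusted p = 0.00334) and 0.14 ± 0.04 (limma adjusted p = 0.0156), and both calls were lost under quantile normalization. Its other, dimmer probe set rose by 0.72 in total RNA and changed by 0.23 on polysomes, and the mean of both was not called on polysomes (0.18).

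Of the enzymes below aldolase, Tpi1, Pgk1, Pgam1 and Pkm were called in total RNA and none of these 4 on polysomes; quantile normalization ended the 4 calls and turned the sign of Pgam1 and Pkm. Triose phosphate isomerase Tpi1, which interconverts the products of aldolase, read 11.79, 11.85 and 11.84 in sham and 12.22, 12.16 and 12.14 in injured total RNA, a rise of 0.34 ± 0.05 (limma adjusted p = 3.81e-05). Phosphoglycerate kinase Pgk1, an ATP-forming enzyme, read 12.12, 12.13 and 12.18 and 12.49, 12.47 and 12.42, a rise of 0.32 ± 0.05 (limma adjusted p = 7.03e-05). For both, every injured array of total RNA exceeded every sham array. On polysomes Tpi1 changed by 0.10 ± 0.05 and Pgk1 by 0.02 ± 0.05, and neither was called, although Tpi1 was at 0.19 after median centring and Pgk1 at 0.13 as the mean of its probe sets. The phosphoglycerate mutase Pgam1 went from 11.65, 11.51 and 11.69 to 11.85, 11.85 and 11.88 in total RNA (0.24 ± 0.07, limma adjusted p = 0.00717). Pyruvate kinase Pkm, the final enzyme, went from 12.37, 12.43 and 12.37 to 12.60, 12.59 and 12.60 (0.21 ± 0.05, limma adjusted p = 0.0039). Their polysome changes were -0.11 ± 0.07 and -0.01 ± 0.05, with overlapping groups.

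Eno2, the neuronal enolase and a neuron marker, read 12.19, 12.17 and 12.16 in sham and 12.39, 12.40 and 12.45 in injured total RNA. Its polysome readings were 12.75, 12.82 and 12.80 and 12.65, 12.71 and 12.65. It was thus above sham in total RNA (0.24 ± 0.04, limma adjusted p = 3.74e-04; -0.01 under quantile normalization) and below sham on polysomes (-0.12 ± 0.04, limma adjusted p = 0.0425). The polysome call was among the least stable: it was lost in 9 of the 12 fits that left out 1 array, with values from -0.14 to -0.10, and under median centring, at -0.03. Eno3, the muscle enolase, was the only tested glycolytic enzyme not called in total RNA, at -0.04 ± 0.08; its arrays spanned 7.58 to 7.89 in sham and 7.56 to 7.83 in injured total RNA. Gapdh was read here only from control probe sets, as the probe sets it shares with other genes were left out. The 3′ control set changed from 13.39 ± 0.03 to 13.44 ± 0.08 (SD, n = 3) in total RNA and from 13.58 ± 0.01 to 13.55 ± 0.02 on polysomes. The 5′ control set went from 13.16 ± 0.07 to 12.04 ± 0.29 and from 12.71 ± 0.02 to 10.72 ± 0.26. The change read for this enzyme therefore depended on which end of the transcript the probes covered.

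At the fate of pyruvate, Ldha and Ldhb rose in total RNA and Pdk1 was not called, while on polysomes Ldha alone of these rose; Ldhb lost its call in total RNA under quantile normalization. Ldha, the lactate dehydrogenase subunit that favours lactate formation, read 10.01, 9.98 and 10.06 in sham and 11.003, 10.82 and 10.63 in injured total RNA. On polysomes it read 9.88, 9.78 and 9.96 and 10.48, 10.48 and 10.20. Every injured array exceeded every sham array in both fractions, and the injured arrays were more spread than the sham arrays. The rise was 0.80 ± 0.10 in total RNA, or 1.74-fold (limma adjusted p = 1.79e-05), and 0.51 ± 0.10 on polysomes, or 1.43-fold (limma adjusted p = 8.26e-04). Ldhb, the subunit favouring pyruvate, went from 12.52, 12.59 and 12.60 to 12.85, 12.93 and 12.90 in total RNA. Its rise of 0.33 ± 0.04 (limma adjusted p = 3.33e-05) was lost under quantile normalization, and its polysome change was 0.07 ± 0.04, not called (0.16 and called after median centring).

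Pfkfb3, which makes fructose 2,6-bisphosphate, the activator of phosphofructokinase, read 8.54, 8.51 and 8.51 in sham and 9.10, 9.07 and 9.15 in injured total RNA. Polysome arrays read 8.97, 8.88 and 8.997 and 8.96, 9.11 and 8.81. The total RNA groups were far apart and the polysome groups overlapped. Its rise was 0.59 ± 0.07 in total RNA (limma adjusted p = 1.79e-05), while the polysome change was 0.01 ± 0.07. Another, much dimmer probe set, above the absent-transcript controls on 1 of 12 arrays, changed by -0.33 in total RNA, and the mean of both gave 0.13, not called. Pdk1, the kinase that switches off pyruvate dehydrogenase and a textbook HIF target, changed by 0.01 ± 0.06 in total RNA and -0.14 ± 0.06 on polysomes, neither called. Its other probe set was called higher in total RNA, at 0.26, as was the mean of both, at 0.13.

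Hif1a rose in total RNA in both of its brighter probe sets. The brightest read 10.39, 10.25 and 10.41 in sham and 11.05, 11.09 and 10.89 in injured total RNA. The polysome values were 10.65, 10.43 and 10.62 and 10.74, 10.95 and 10.71. The groups did not overlap in either fraction, by a narrow margin on polysomes. The rise was 0.66 ± 0.08 in total RNA, or 1.58-fold (limma adjusted p = 2.85e-05), and 0.23 ± 0.08 on polysomes (limma adjusted p = 0.039); the latter was lost without sham total replicate 1, sham polysome replicate 2 or 3, or injured polysome replicate 2 (0.16 to 0.26). The polysome call was also lost with the replicate number as a fixed block, with array weights and when only the groups compared were fitted. The next probe set changed by 0.40 and 0.34. Egln1, the main oxygen-sensing hydroxylase, read 10.16, 10.15 and 10.21 in sham and 10.49, 10.46 and 10.44 in injured total RNA. It rose by 0.29 ± 0.08 (limma adjusted p = 0.00981; -0.0049 under quantile normalization, and 0.07 and not called as the mean of its 2 probe sets) and changed by -0.11 ± 0.08 on polysomes, not called. Egln3, a hydroxylase that hypoxia itself induces in many cells, changed by 0.12 ± 0.07 in total RNA (limma adjusted p = 0.141). It was called at 0.19 without injured total replicate 3, at 0.14 with array weights and at 0.19 as the mean of its 2 probe sets. The other probe set of Egln3 was itself called higher in total RNA, at 0.26.

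Of the 6 further hypoxia targets, 5 (83.3%) rose in total RNA and 0 fell, beside 42.1% and 18.1% of all genes. After quantile normalization 3 of the 5 were still called, and Ndrg1 changed sign. On polysomes 1 rose and 2 fell (16.7% and 33.3%), near the 13.8% and 25.3% of all genes. Adm encodes adrenomedullin, a vasodilator peptide. It read 6.88, 6.90 and 6.88 on the sham and 7.75, 7.70 and 7.73 on the injured arrays of total RNA. Its polysome readings were 6.88, 6.69 and 6.78 and 6.88, 6.90 and 6.81. In sham total RNA, 0 of 3 arrays exceeded the brightest absent-transcript control, so that level is near background, and the injured arrays exceeded it, at 3 of 3. The difference was 0.84 ± 0.05 in total RNA (limma adjusted p = 7.78e-08), and 0.08 ± 0.05 on polysomes, not called there but called under the other scalings (0.14 to 0.17); against the level of the brightest absent-transcript control, injured total RNA was at least 1.61-fold higher. Vegfa, the angiogenic growth factor, read 9.05, 8.95 and 9.09 in sham and 9.28, 9.19 and 9.24 in injured total RNA. On polysomes it read 7.73, 7.74 and 7.81 and 7.58, 7.59 and 7.62. Injured arrays therefore lay above sham in total RNA (0.21 ± 0.06, limma adjusted p = 0.0047) and below sham on polysomes (-0.16 ± 0.06, limma adjusted p = 0.0307). The total RNA call was lost under quantile normalization and the mean of its 2 probe sets gave -0.07, and the polysome call was lost without any single sham polysome array or injured polysome replicate 1 (-0.18 to -0.14). The polysome call of Vegfa was also lost under every other scaling tried, at -0.05 and -0.06 with the quantile normalizations and -0.08 after median centring, and with the mean of its probe sets (-0.10).

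Bnip3, which promotes removal of mitochondria, read 10.91, 10.89 and 10.91 in sham and 11.37, 11.49 and 11.28 in injured total RNA. Polysome arrays read 11.67, 11.68 and 11.57 and 11.69, 11.92 and 11.85. It rose by 0.48 ± 0.07 in total RNA (limma adjusted p = 7.91e-05), and its polysome rise of 0.18 ± 0.07 (limma adjusted p = 0.0499) stood at the threshold and was lost in 9 of 12 fits without an array (0.13 to 0.20). P4ha2, a collagen prolyl hydroxylase, read 7.69, 7.92 and 7.90 in sham and 8.36, 8.15 and 8.22 in injured total RNA, a rise of 0.41 ± 0.08 (limma adjusted p = 0.00101). Its polysome change was -0.08 ± 0.08, and the brightest probe set of its relative P4ha1 was called in neither fraction (0.10 and -0.11). The other probe set of P4ha1, above the absent-transcript controls on 5 of 12 arrays, was called lower in total RNA, at -0.35. Ndrg1, a stress-induced gene expressed in oligodendrocytes, read 11.82, 11.85 and 11.90 in sham and 12.05, 12.01 and 11.996 in injured total RNA. The polysome values were 11.92, 11.91 and 11.95 and 11.67, 11.69 and 11.62. The brightest probe set thus rose by 0.16 ± 0.05 in total RNA (limma adjusted p = 0.00791; -0.08 under quantile normalization and -0.14 as the mean of its 5 probe sets) and fell on polysomes, at -0.27 ± 0.05 (limma adjusted p = 4.94e-04).

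**Figure D2:**
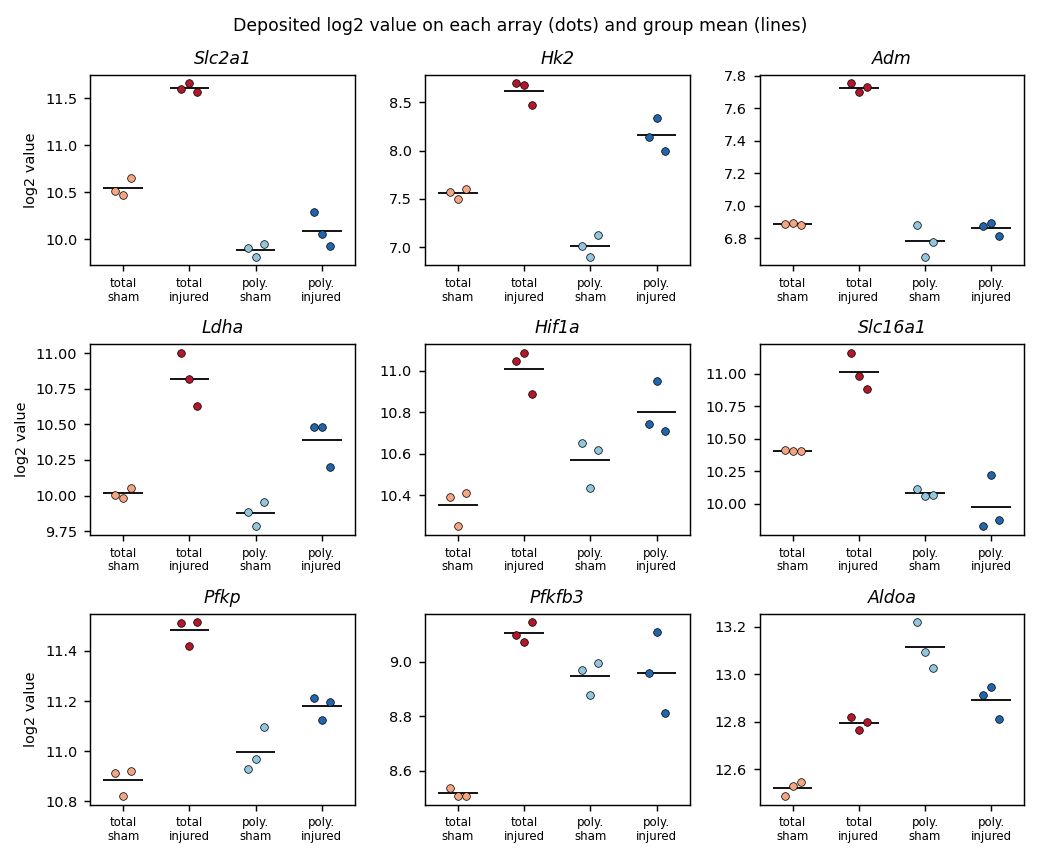
Deposited log2 value on each of the 12 arrays (dots) and group mean (lines) for 9 members, in total and polysome-bound RNA of sham and injured cord; the vertical axes differ between panels and do not start at 0. Slc2a1, Adm, Slc16a1 and Pfkfb3 rise in total RNA with overlapping polysome groups, Hk2 and Ldha rise in both fractions, and Aldoa rises in total RNA and falls on polysomes (its total RNA call is lost under quantile normalization and its polysome call under median centring).

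Brightness was set beside these changes because the shift of all genes depended on it. The brightest decile of all genes held 15 members, and all 15 were called higher in total RNA, as were 72.6% of the 1037 genes of that decile, with 2.7% lower. On polysomes 4 of these 15 members were higher and 3 lower, beside 19.8% and 25.6% of the decile. Of these 15, 8 lay above the median of the decile, 0.27. Enzymes such as Aldoa (0.27), Pgam1 (0.24) and Eno2 (0.24) therefore changed about as much as other bright genes. Beyond the 95th percentile of their own decile lay 6 members in total RNA: Slc2a1, Hk2, Adm, Ldha, Hif1a and Pfkp. On polysomes Hk2 and Ldha did so.

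**Figure D3:**
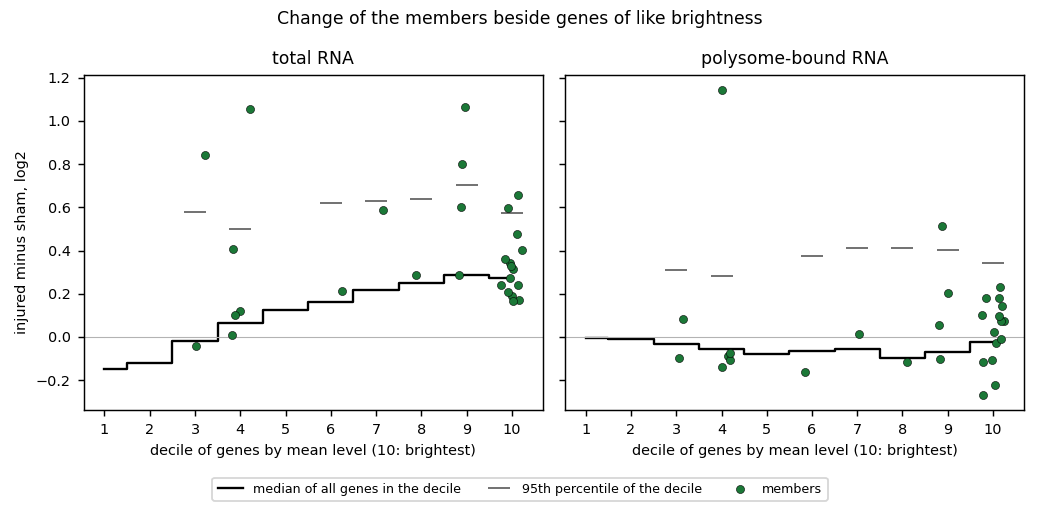
Log2 change of each tested member (dots) against the decile of all genes, by mean level, in which it lies, for total RNA (left) and polysome-bound RNA (right); steps show the median of all genes in the decile and dashes its 95th percentile. In total RNA the median climbs from -0.15 to 0.27, and most of the 15 members in the brightest decile lie close to it. Slc2a1 (1.06, decile 9) and Hk2 (1.05, decile 4) lie far above the medians of their own deciles. Quantile normalization, not shown here, brings the median of all genes to 0.01 and turns the sign of Hk1, Pgam1, Eno2, Pkm, Egln1 and Ndrg1.

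The difference between the fractions was tested directly, as the injury change on polysomes minus that in total RNA. It was negative and called for 20 of 29 members and positive and called for 0, where 50.2% of all genes were called, 39.3% lower and 11.0% higher. In the brightest decile 13 of 15 members were called lower and 0 higher, beside 59.2% and 2.7% of its genes. The median was -0.29 for the members and -0.16 for all genes. The strongest difference was that of Slc2a1, at -0.86 ± 0.12 (limma adjusted p = 1.11e-04). Slc16a1 followed at -0.70 ± 0.13 (limma adjusted p = 8.21e-04) and Pfkfb3 at -0.58 ± 0.10 (limma adjusted p = 4.94e-04). Among genes of their own brightness decile, 5.6%, 14.8% and 15.3% were as low or lower. The medians of those deciles were -0.37 for Slc2a1 and Slc16a1 and -0.29 for Pfkfb3. Adm was fitted at -0.76 ± 0.07 (limma adjusted p = 1.40e-05), but its sham total RNA was not above the absent-transcript controls, so that this size and its rank are not established. All 3 tested transporters were among the 20. Under all 4 scalings, the deposited one included, 6 of the 20 stayed called: Slc2a1, Adm, Slc16a1, Pfkfb3, Aldoa and P4ha2. Quantile normalization turned the sign for Tpi1, Slc2a3 and Bnip3, and raised the share of called genes that were higher from 21.8% to 47.0%. The choice of probe set mattered too. Averaging the probe sets of a gene ended the calls of Pfkfb3 (-0.19), Pgk1 (-0.16), Slc2a3 (-0.14), Hif1a (-0.05), Egln1 (-0.15) and Vegfa (-0.03), and made calls of Aldoc (-0.26), Pdk1 (-0.27) and Egln3 (-0.29). Dimmer probe sets of Hif1a (0.35), Vegfa (0.31) and P4ha1 (0.31) were called positive; they exceeded the absent-transcript controls on 7, 9 and 5 of the 12 arrays.

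Hk2 stood apart from this pattern with a difference of 0.09 ± 0.12 (95% interval -0.17 to 0.35, limma adjusted p = 0.553), so its polysome rise was not shown to differ from its rise in total RNA. The brightest probe set of Aldoc was similar, at -0.03 ± 0.06 (interval -0.16 to 0.10), while its other one was called lower at -0.49. No difference was called for Hk1 either, at -0.12 ± 0.10 (interval -0.33 to 0.10). For Ldha the interval ran from -0.58 to 0.0015 (limma adjusted p = 0.0884), and the difference was called at -0.38 without injured total replicate 3. The calls of Pkm and Bnip3 were lost on leaving out some arrays: Pkm without sham total replicate 1 or sham polysome replicate 2 or 3 (-0.21 to -0.18), Bnip3 without injured total replicate 2 or sham polysome replicate 1 or 2 (-0.28 to -0.24).

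Polysome-bound minus total RNA, a relative measure of loading because each fraction was labelled separately from 3 or 5 µg of RNA, varied widely among the members already in sham cord. There 10 members were called higher on polysomes and 10 lower, where 80.1% of all genes were called, 21.0% higher and 59.1% lower, at a median of -0.30 for all genes. The highest were the enzymes Pfkl (0.74 ± 0.07), Eno2 (0.62 ± 0.04), Tpi1 (0.60 ± 0.05), Aldoa (0.59 ± 0.05) and Pgk1 (0.55 ± 0.05), together with Bnip3 (0.74 ± 0.07). The lowest were Vegfa (-1.27 ± 0.06), Egln1 (-1.22 ± 0.08), Eno3 (-0.80 ± 0.08), P4ha2 (-0.70 ± 0.08), P4ha1 (-0.69 ± 0.09) and Slc2a1 (-0.66 ± 0.08). Of the 13 tested glycolytic enzymes 6 were called higher on polysomes, 2 lower and 5 were not called. Loading rose with brightness among all genes, to a median of 0.25 in the brightest decile, in which most of these enzymes lie. These 12 members kept their sign under each scaling tried, although median centring ended the calls of Slc2a1 and P4ha1 and gave 19 higher and 4 lower members over the set, with the share of called genes that were higher going from 26.2% to 72.4%.

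In injured cord 6 members were called higher on polysomes and 20 lower, where 86.3% of all genes were called, 13.6% higher and 72.7% lower, at a median of -0.41 for all genes; median centring gave 17 higher and 9 lower members, with the share of called genes that were higher going from 15.8% to 69.0%. Vegfa (-1.64 ± 0.06), Egln1 (-1.62 ± 0.08) and Slc2a1 (-1.52 ± 0.08) were the lowest. Pfkl (0.51 ± 0.07), Bnip3 (0.44 ± 0.07) and Tpi1 (0.36 ± 0.05) were the highest in injured cord. Aldoa was at 0.10 ± 0.05, which was not called and read -0.15 as the mean of its probe sets. The injured and sham loadings share no arrays, and their difference is the test given in the preceding comparison.

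**Figure D4:**
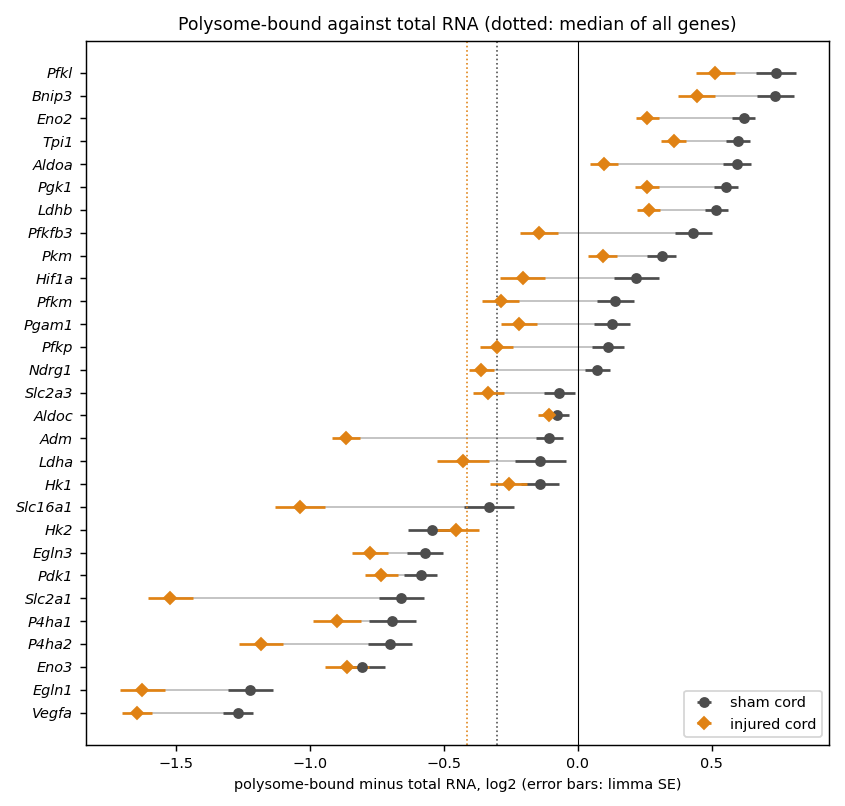
Polysome-bound minus total RNA (log2, horizontal axis) for the 29 tested members in sham cord (circles) and injured cord (diamonds), ordered by the sham value, with limma standard errors; dotted lines mark the medians of all genes, -0.30 and -0.41. Most diamonds lie to the left of their circles, as for Slc2a1 (-0.66 to -1.52), while the pair of Hk2 lies close together. The circle of Adm rests on total RNA near background; where 0 falls depends on the scaling, and after median centring 19 members are called higher in sham cord.

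Members of a family were also compared within each array, where a constant shift of an array cancels but a scaling that depends on brightness does not, in 18 tests (exact two-sided permutation over 3 against 3 arrays, which cannot go below 0.1). Hk2 minus Hk1 changed by 0.86 in total RNA and by 1.07 on polysomes, without overlap in either, and by 1.20 in total RNA under quantile normalization. Ldha minus Ldhb changed by 0.48 and 0.44, again without overlap. Slc2a1 minus Slc2a3 changed by 0.70 in total RNA without overlap and by 0.11 on polysomes with overlap. Aldoa minus Aldoc changed by 0.10 with overlap (-0.02 under quantile normalization) and by -0.36 without. P4ha1 minus P4ha2 changed by -0.30 in total RNA without overlap and by -0.03 on polysomes with overlap. Pfkp minus Pfkm changed by 0.19 without overlap and by 0.21 with overlap. In total RNA Pfkl minus Pfkm (-0.12), Slc16a3 minus Slc16a1 (-0.57) and Egln3 minus Egln1 (-0.17) changed without overlap. Their polysome changes, 0.09, 0.24 and 0.03, came with overlap. Slc16a3 read below the brightest absent-transcript control on all arrays, so the size for its pair is not established. No pair could pass the threshold: the smallest adjusted p was 0.164. Pairs with Eno1 were not run for want of a probe set.

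Several members are read by more than 1 probe set, and these did not always move together. Of 18 such members, 6 had every tested probe set called higher in total RNA (Slc2a1, Aldoa, Aldoc, Tpi1, Pgk1 and Ldhb) and 5 had calls in both directions (Hk1, Pfkfb3, Slc2a3, Vegfa and Ndrg1). The dimmer probe set of Hk1 changed by -0.99 in total RNA and by -1.14 on polysomes, beside 0.19 and 0.07 for the brightest. The 5 probe sets of Ndrg1 ranged from -0.86 to 0.31 in total RNA. For Vegfa, Pfkfb3 and Slc2a3 the opposing probe sets changed by -0.35, -0.33 and -0.33, and they exceeded the absent-transcript controls on 9, 1 and 0 of the 12 arrays. Which transcripts or transcript ends the opposing probe sets read was not tested.

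**Figure D5:**
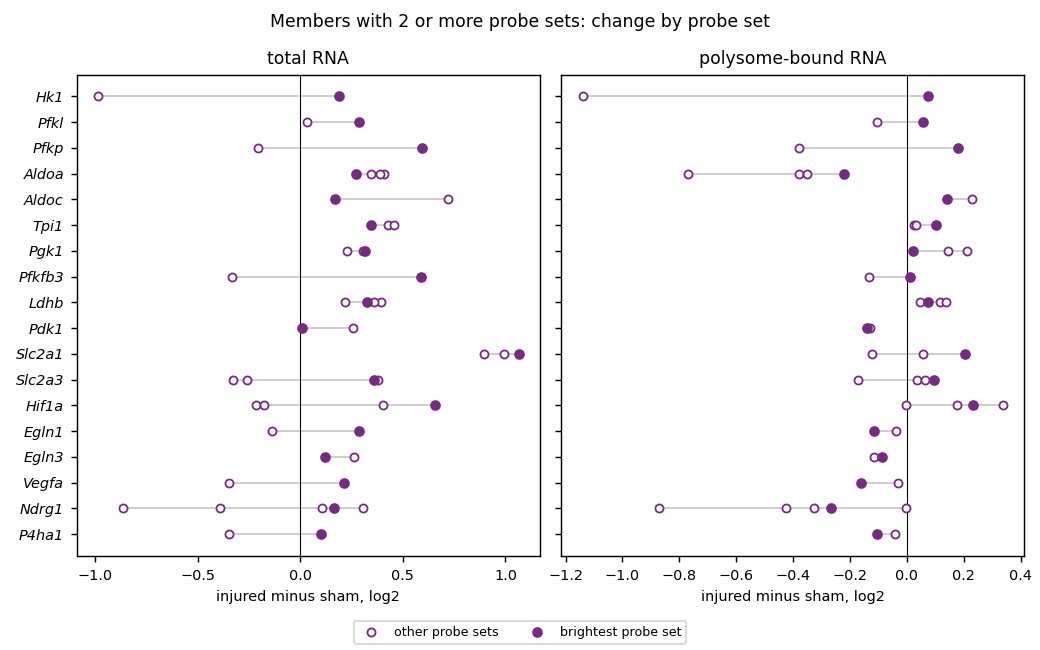
Log2 change (injured minus sham, horizontal axis) of every probe set of the 18 members read by 2 or more, in total RNA (left) and on polysomes (right); filled dots are the brightest probe set, open dots the others. Probe sets of Slc2a1 (0.90 to 1.06) and of Aldoa cluster in total RNA, whereas those of Hk1 and Ndrg1 spread across 0; calls for the abundant members depend on the scaling, and that of the brightest Aldoa probe set in total RNA is lost under quantile normalization.

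Related genes outside the set were counted from lists of pathway members, to be read against all genes, of which 42.1% were higher and 18.1% lower in total RNA and 13.8% and 25.3% on polysomes. Of 12 measured HIF pathway regulators, 5 (41.7%) were higher and 4 (33.3%) lower in total RNA and 4 and 4 on polysomes, so that the higher share in total RNA was that of all genes. Among them were Hif3a, a HIF paralogue, at 0.45 ± 0.06 (limma adjusted p = 5.03e-05) and 0.33 ± 0.06, and Vhl, the ligase subunit that binds hydroxylated HIF, at -0.31 ± 0.06 in total RNA; after quantile normalization 1 was higher and 3 lower in total RNA. Arnt2, a partner of HIF, was called lower in total RNA, but its injured mean of 6.75 lay under the brightest absent-transcript control (6.85), so no size is given. Arnt and Epas1 were also called lower. Arnt exceeded the absent-transcript controls on 0 of 12 arrays, Arnt2 on 8 and Epas1 on 10. The brightest of these controls itself changed by -0.19 in total RNA. The sizes of the falls of Arnt, Arnt2 and Epas1 are therefore not established. The coactivator Crebbp was at 0.39 ± 0.06 and the inhibitor Cited2 at -0.29 ± 0.07 on polysomes. Both were called higher in total RNA, at 0.25 and 0.22. For Cited2 the difference between the fractions was called, at -0.51. Of 17 further hypoxia targets, 11 (64.7%) were higher and 1 (5.88%) lower in total RNA (11 and 0 after quantile normalization) and 4 and 3 (23.5% and 17.6%) on polysomes. Angptl4, a regulator of lipoprotein lipase, rose by 2.02 ± 0.16 in total RNA and 1.11 ± 0.16 on polysomes, and haem oxygenase Hmox1 by 1.72 ± 0.08 and 1.21 ± 0.08. Higd1a rose by 0.50 ± 0.06 in total RNA, and the lipid droplet protein Plin2 by 0.42 ± 0.07 on polysomes. Medians of this list were 0.44 and 0.03.

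Of 16 further enzymes of glycolysis and glycogen, 6 (37.5%) were higher and 3 (18.8%) lower in total RNA (5 and 4 after quantile normalization) and 2 and 2 (12.5% each) on polysomes (5 and 1), shares of higher genes near those of all genes. Gpd1, the glycerol 3-phosphate dehydrogenase, rose by 0.62 ± 0.08 and 0.71 ± 0.08, Pgm1 by 0.56 ± 0.08 and the muscle glycogen phosphorylase Pygm by 0.46 ± 0.07 in total RNA, while the UDP-glucose pyrophosphorylase Ugp2 was at -0.39 ± 0.08 and glycogen synthase Gys1 at 0.22 ± 0.05 on polysomes. Of 8 measured genes around pyruvate dehydrogenase, namely its subunits Pdha1, Pdhb, Dlat and Dld, its kinases Pdk2, Pdk3 and Pdk4 and the mitochondrial pyruvate carrier subunit Mpc1, 7 (87.5%) were higher and 0 lower in total RNA (2 and 0 after quantile normalization), and 1 (12.5%) higher and 3 (37.5%) lower on polysomes. Pdk4, the kinase induced by fasting and glucocorticoids, rose by 1.43 ± 0.12 in total RNA and 1.19 ± 0.12 on polysomes, beside 0.01 and -0.14 for the brightest probe set of its relative Pdk1 among the members. The subunits Pdha1 and Pdhb rose by 0.38 ± 0.06 and 0.32 ± 0.06 in total RNA, calls that quantile normalization ended, and Pdk3 and Dld were at -0.69 ± 0.08 and -0.38 ± 0.09 on polysomes. Of 7 pentose phosphate enzymes, 3 (42.9%) were higher and 0 lower in total RNA (2 and 2 after quantile normalization) and 3 and 2 (42.9% and 28.6%) on polysomes, with H6pd at 0.80 ± 0.08 and Pgd at 0.50 ± 0.09 in total RNA and Tkt at 0.19 ± 0.06 in total RNA (-0.06 after quantile normalization) and 0.42 ± 0.06 on polysomes; Rpe was at -0.35 ± 0.08 on polysomes.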

How the data were processed

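RNA from 12 samples of mouse spinal cord was measured on Affymetrix arrays, 3 for each of 4 groups (total or polysome-bound RNA, sham or injured). The authors deposited log2 values, 1 for each of 22690 probe sets and array; the scale is not named in the labels and was read from the range of the values, and the background correction and normalization are not given in the sources used here. The values were used as deposited. Probe sets took their symbol from the array's annotation: 20380 carried 1 symbol, 691 several and 1555 none, and 64 controls were left out. A probe set was kept if 3 or more arrays had it above their 25th percentile, and the brightest of each gene by its mean over the 12 arrays was tested, which gave 10370 genes.

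Group means over all 12 arrays were fitted with limma 3.58.1 (lmFit, eBayes with an intensity trend, R 4.3.3), and p-values were adjusted over all genes by Benjamini and Hochberg, with a threshold of 0.05. The fit was tested on simulated data. The number of arrays limits the precision. The members and lists were chosen with earlier results of these data known. Members past the threshold without overlap of the groups, the 8 with the largest change per comparison, Gapdh, Hif1a and Vegfa were to be given by array; from each further list, up to 3 genes with the lowest adjusted p in each fraction were named. Equal replicate numbers were checked for pairing: the deviations of total and polysome arrays of 1 number correlated at 0.17 to 0.23 in sham and at -0.10 to 0.20 in injured cord. These values cannot show whether equal numbers mark 1 lysate, and the labels do not say so. The main fit assumed no pairing, and fits with the replicate number as a block are given below. Alternatives covered filters, choice of probe set, scaling, moderation, weights, blocks and leaving out each array. Absent-transcript controls were 27 bacterial control probe sets. Promoter windows came from RefSeq (GRCm38.p6).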

Additional observations from a re-analysis of the deposited data

Results flagged for a closer look

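The injury change differed between polysome-bound and total RNA, by limma's test of that difference, for 20 members, all lower on polysomes. The log2 differences were -0.86 for Slc2a1, -0.76 for Adm, -0.70 for Slc16a1, -0.58 for Pfkfb3, -0.50 for Aldoa, -0.48 for P4ha2, -0.43 for Ndrg1, -0.43 for Pfkm, -0.42 for Hif1a and -0.41 for Pfkp. They were -0.40 for Egln1, -0.38 for Vegfa, -0.36 for Eno2, -0.35 for Pgam1, -0.29 for Bnip3, -0.29 for Pgk1, -0.26 for Slc2a3, -0.25 for Ldhb, -0.24 for Tpi1 and -0.22 for Pkm. Among all genes 39.3% were called lower in this test. For Adm, sham total RNA was near background. Groups of 3 arrays were too small for a test of single outlying arrays. In limma's array weights a noisier array gets a lower weight. Injured polysome replicates 1, 2 and 3 had weights of 0.205, 0.471 and 0.895, and the other arrays 0.924 to 2.082. The main fit used no weights and 1 spread for all groups, so it did not allow for this difference.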

How the results depend on the processing

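Of the alternatives, scaling mattered most. Quantile normalization of the 12 arrays, or within each fraction, left 10 and 10 members called in total RNA against 25, and 7 and 6 in the test between fractions against 20; within fractions 3912 genes were called in total RNA against 6242. Under the first and then the second of these, total RNA values turned to -0.10 and -0.10 for Hk1, -0.016 and -0.017 for Pgam1, -0.012 and -0.013 for Eno2, -0.023 and -0.022 for Pkm, -0.0049 and -0.0050 for Egln1, and -0.085 and -0.095 for Ndrg1. The difference between fractions turned to 0.0046 and 0.0068 for Tpi1, 0.10 and 0.11 for Slc2a3, and 0.012 and 0.024 for Bnip3.

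Averaging the probe sets of a gene gave -0.40 in total RNA and -0.53 on polysomes for Hk1, -0.066 and -0.14 in total RNA for Vegfa and Ndrg1, -0.10 on polysomes for Pfkp and -0.15 for the injured loading of Aldoa. Without _s_at and _x_at probe sets, Slc2a3 changed by -0.33 in total RNA, -0.17 on polysomes and 0.16 between fractions. Testing each probe set called 9892, 6419, 8368, 13434 and 14338 probe sets in total RNA, on polysomes, between fractions and in sham and injured loading, where more features were tested than the 10370 genes. Fitting only the groups compared called 5 members on polysomes against 10. Leaving out 1 array gave 24 to 25 members called in total RNA and 5 to 10 on polysomes. Except where a construction is named, the cause was not tested.

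With the replicate number as a fixed block, 24, 7 and 20 members were called in total RNA, on polysomes and between fractions, against 25, 10 and 20. The calls lost were those of Hk1 in total RNA and of Eno2, Hif1a and Bnip3 on polysomes. The random block (correlation 0.0019) gave 25, 10 and 20. Low signal limits Adm in sham and Slc16a3 throughout.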
